A study of Mus musculus with 28 samples.

Results

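Penk, Pdyn, Pnoc, Oprm1, Oprd1, Oprk1 and Oprl1 encode 3 precursors of opioid peptides and the 4 receptors of the opioid family. They were taken by symbol, after the gene identifiers of the count table had been matched to an annotation, and all 7 were found among its 51912 genes. Prohormone convertases cut the precursors into short peptides: Penk yields enkephalins, Pdyn yields dynorphins and Pnoc yields nociceptin. Enkephalins act mainly on the delta and mu receptors (Oprd1 and Oprm1), dynorphins on the kappa receptor (Oprk1) and nociceptin on its own receptor (Oprl1). All of these receptors signal through inhibitory G proteins, which lower cyclic AMP, open inwardly rectifying potassium channels and close presynaptic calcium channels. In the gut wall, enkephalin is a peptide of myenteric neurons, and opioid drugs that bind the mu receptor there slow propulsion.

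Nuclear RNA was measured in the longitudinal muscle and attached myenteric plexus of the colon and small intestine of C57BL/6 mice, kept either germ-free (GF) or specific pathogen-free (SPF). Every animal, in all groups, had been given AAV9-CaMKII-EGFPKASH by vein, a virus whose CaMKII promoter drives a fluorescent protein of the nuclear envelope, and tissue was taken after 5 weeks. Nuclei were sorted by EGFP, and the labels call the EGFP-positive fraction neuronal and the EGFP-negative fraction non-neuronal. Each fraction of each segment had 4 SPF and 3 GF libraries, which gave 8 groups and 28 libraries. The promoter and the reach of the virus set which neurons were labelled, and a neuron without EGFP went to the non-neuronal fraction. Ages, and whether a library came from a single animal, are not in the labels. These are bulk libraries, so fewer cells of a type and less RNA per cell cannot be told apart.

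Library totals ran from 2394517 to 7321922 counts. Levels are given as CPM, counts scaled to the library total. A library at 0 can still hold up to 3 counts, a floor that lay between 0.41 and 1.25 CPM and covers counting error only. The neuronal fraction was rich in neuron RNA: 10 pan-enteric neuron markers, among them Elavl4, Uchl1 and Snap25, summed to 3730 to 5892 CPM in its 14 libraries. The colonic non-neuronal fraction was not free of these transcripts, with sums of 782 to 1764 CPM in SPF and 814 to 1287 CPM in GF. Small intestinal non-neuronal libraries had 43.7 to 195 CPM in GF, and 35.1, 46.5 and 73.4 CPM in 3 of the SPF libraries. Replicate 1 of that SPF group stood apart at 691 CPM, and results that rest on it are given with and without it. Smooth muscle markers (6 genes) summed to 266 to 1076 CPM in neuronal and 7078 to 16570 CPM in non-neuronal libraries. Summed markers of interstitial cells of Cajal, the pacemaker cells of gut muscle, were not lower in the neuronal fraction of the small intestine. Their 5 genes summed to 728 to 2408 (SPF) and 472 to 698 CPM (GF) in small intestinal neuronal libraries. Non-neuronal ones held 317 to 1116 and 299 to 523 CPM. In the colon these sums were 346 to 504 and 299 to 443 CPM (neuronal) and 396 to 556 and 481 to 669 CPM (non-neuronal). Gpr20, on this list, was at 0 in both colonic neuronal groups. Etv1, also on it, is a marker of inhibitory neurons as well. The sums are therefore not specific to Cajal cells and do not show how many of their nuclei remained. Xist RNA was abundant in 8 libraries, 2 of the 4 in every SPF group, and in no GF library.

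In the GRCm38 build Penk (ENSMUSG00000045573) lies at chr4:4133531-4138819 on the minus strand, Pdyn (ENSMUSG00000027400) at chr2:129686565-129699844 on the minus strand and Pnoc (ENSMUSG00000045731) at chr14:65400673-65425472 on the minus strand. Oprm1 (ENSMUSG00000000766) lies at chr10:6758506-7038198 on the plus strand and Oprd1 (ENSMUSG00000050511) at chr4:132110726-132144486 on the minus strand. Oprk1 (ENSMUSG00000025905) lies at chr1:5588466-5606131 and Oprl1 (ENSMUSG00000027584) at chr2:181715016-181720985, both on the plus strand. Merged exons span 1634 bases in Penk, 2887 in Pdyn, 2157 in Pnoc, 8037 in Oprm1, 4021 in Oprd1, 9151 in Oprk1 and 3753 in Oprl1, so levels are set beside each other only per kilobase. Exons of Penk share 233 bases with A830012C17Rik on the other strand, which averaged 1.23 to 14.4 CPM in the neuronal groups. Exons of Oprm1 share 96 bases with Ipcef1 on the other strand, which averaged 29.0 to 56.0 CPM there. No source used here states whether reads were counted by strand, so those in shared stretches cannot be assigned.

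Promoters of the mu, delta and nociceptin receptor genes are shown because these receptors were each called higher in neuronal nuclei in at least 2 of the groups compared. RefSeq's promoter table (GRCm38.p6) matched 4 of the 7 genes, Pdyn, Oprm1, Oprd1 and Oprl1. Each window of 300 bases spans the annotated start site and is written 5′ to 3′ on the gene's strand. It is chr10:6758343-6758642 for Oprm1, chr4:132144437-132144736 (minus strand) for Oprd1 and chr2:181714766-181715065 for Oprl1. Where the table had several starts (3 for Oprm1 and 3 for Oprl1), the start nearest to most annotated coding transcripts was taken. Capitals mark matches, on either strand, to the letters CAGCTG of the E-box, TGACGTCA of the cyclic AMP response element, GGGCGG of the so-called GC box, CCAAT of the box named after it and TATAAA of the TATA box.
Oprm1: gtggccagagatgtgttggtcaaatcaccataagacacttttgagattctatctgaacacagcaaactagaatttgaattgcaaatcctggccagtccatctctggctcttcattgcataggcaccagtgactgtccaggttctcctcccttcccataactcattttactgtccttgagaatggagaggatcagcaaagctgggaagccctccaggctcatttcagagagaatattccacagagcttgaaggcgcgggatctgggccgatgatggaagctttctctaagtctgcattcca
Oprd1: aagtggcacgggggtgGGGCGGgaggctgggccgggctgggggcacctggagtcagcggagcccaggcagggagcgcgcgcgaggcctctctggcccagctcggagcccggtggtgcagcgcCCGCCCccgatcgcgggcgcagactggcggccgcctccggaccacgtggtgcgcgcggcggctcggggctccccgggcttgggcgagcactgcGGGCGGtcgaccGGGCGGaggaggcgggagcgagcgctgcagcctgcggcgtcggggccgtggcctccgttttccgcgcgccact
Oprl1: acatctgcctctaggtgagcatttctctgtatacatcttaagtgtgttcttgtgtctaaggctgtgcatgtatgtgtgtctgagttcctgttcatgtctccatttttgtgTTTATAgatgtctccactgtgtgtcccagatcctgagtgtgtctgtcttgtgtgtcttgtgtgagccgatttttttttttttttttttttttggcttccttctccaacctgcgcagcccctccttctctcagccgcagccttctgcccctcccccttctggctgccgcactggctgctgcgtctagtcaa
The Oprd1 window was 79.3% G and C and held 4 GC boxes, none of which overlapped another match. The Oprl1 window (47.7% G and C) held 1 TATA box on the opposite strand, and the Oprm1 window (47.3%) held none of these letters. The Pdyn window held 1 CCAAT box on the opposite strand. Of all 32851 promoter windows of this length, 16.3% held the E-box, 1.79% the cyclic AMP response element, 35.7% the GC box, 37.4% the CCAAT box and 13.6% the TATA box. These matches are descriptions of the letters in the windows.

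The sorted fractions were compared within each segment and microbiota state. Enkephalin precursor and mu receptor RNA was higher in neuronal libraries in both segments with and without a microbiota. Delta and kappa receptor RNA was called higher in the small intestine of both SPF and GF mice, and nociceptin receptor RNA in SPF colon and in both small intestinal comparisons. Genes were called by edgeR's quasi-likelihood test at an adjusted p below 0.05 over all genes tested. In SPF colon 3 of the 6 members tested were called higher, where 3.27% of all 20964 genes tested were called higher and 10.8% were called in either direction. In SPF small intestine 5 of 6 were called higher, against 9.09% of genes called higher and 15.1% called in either direction. In GF colon 2 of 6 were called higher, against 2.2% and 7.17%. In GF small intestine 5 of 6 were called higher, against 5.6% and 10.9%. No member was called lower. Pdyn was tested in all 4 comparisons and called in none, and Pnoc had too few counts to be tested. The low-count filter can be passed through a neuronal group alone, so these counts describe the genes and support nothing beyond them.

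**Figure D1:**
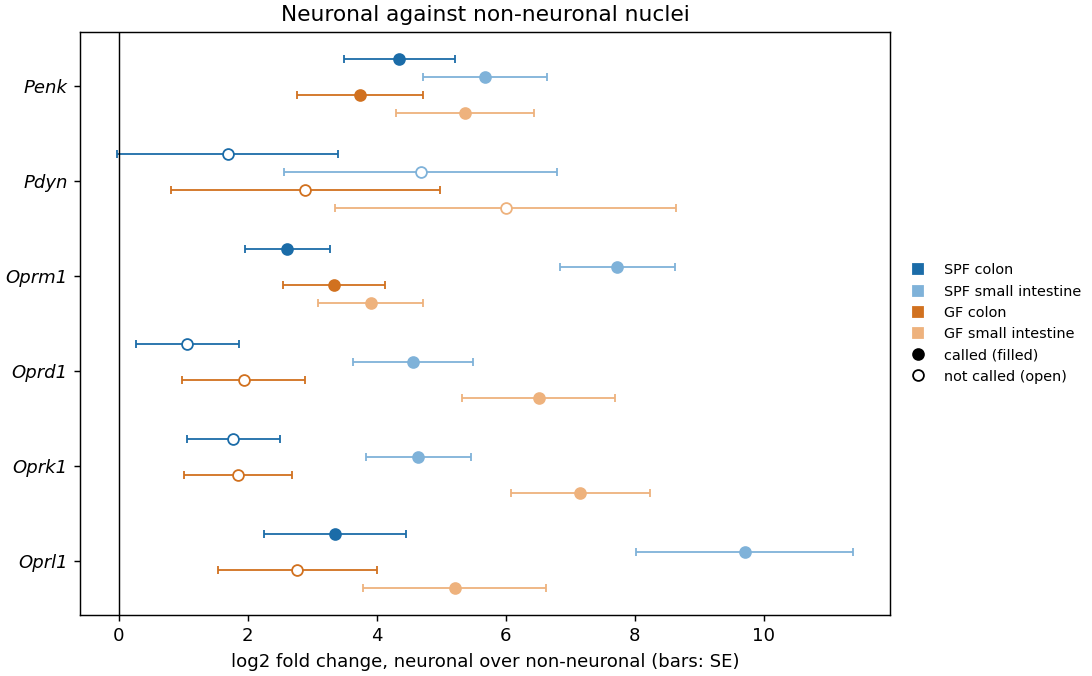
Fitted log2 fold changes of 6 opioid genes, neuronal over non-neuronal (x axis, bars are SE), in SPF and GF colon and small intestine. Filled points passed edgeR's test at an adjusted p below 0.05 and open points did not, and the colon points of Oprd1 and Oprk1 are open while their small intestine points are filled. The Oprl1 point in SPF small intestine (9.71) rests on 4 non-neuronal libraries at 0, so its size depends on the prior count and is no bound.

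These calls compare libraries by total RNA, in which neuronal transcripts also made up different shares. When each library was scaled to the summed counts of the 10 neuron markers instead, an alternative added after seeing the data, 2 of the 15 calls remained. They were Oprm1 (log2 fold change 3.44, edgeR adjusted p = 0.0138) and Oprl1 (adjusted p = 0.0181), both in SPF small intestine. On the log2 scale this moved the median of all genes by -2.09 (SPF) and -2.57 (GF) in the colon and by -5.86 (SPF) and -5.39 (GF) in the small intestine.

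Penk was the most abundant of the 7 genes per kilobase of exon in neuronal libraries, at a mean of 131 CPM per kb and a range of 40.9 to 460 CPM per kb over 14 libraries. The 4 SPF colonic neuronal libraries held 752, 288, 342 and 369 CPM, and the 4 SPF small intestinal ones 68.5, 92.5, 66.8 and 92.5 CPM. In GF the colonic neuronal libraries held 319, 88.6 and 171 CPM and the small intestinal ones 148, 105 and 95.0 CPM. Every SPF colonic library lay above every small intestinal library of either microbiota state, whereas the GF segments overlapped. The order of group means ran from SPF colon (438 CPM) over GF colon (193) and GF small intestine (116) to SPF small intestine (80.1), and of these neighbours only GF and SPF small intestine had ranges that did not overlap.

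Between segments, Penk was 5.46-fold higher in SPF colonic than in SPF small intestinal neuronal nuclei by mean CPM. The fitted log2 fold change was 2.28 (SE 0.37, edgeR adjusted p = 0.00140), the only call among 6 members in a comparison where 0.653% of 17298 genes were called. In GF neuronal nuclei the same contrast gave a log2 fold change of 0.78 (SE 0.42, edgeR adjusted p = 0.539), with no member among the 0.301% of genes called. The test of the difference between SPF and GF gave 1.51 (SE 0.55, unadjusted p = 0.0108, edgeR adjusted p = 0.773), in an interaction where 0% of genes were called, so the segment effect was not shown to differ. Leaving out each of the 14 neuronal libraries in turn kept the SPF log2 fold change between 1.88 and 2.46 with an adjusted p of at most 0.0117. With all 28 libraries in the fit the call was lost (log2 fold change 2.29, edgeR adjusted p = 0.303).

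Markers of intrinsic primary afferent neurons, the sensory cells of the gut wall, were also higher in SPF colonic than in SPF small intestinal neuronal libraries. The 6 genes (Calca, Calcb, Nmu, Nog, Sst and Dlx3) summed to 160.0 to 372 CPM in SPF colon, 23.9 to 213 CPM in GF colon, 27.6 to 72.8 CPM in SPF small intestine and 28.3 to 81.5 CPM in GF small intestine. Replicate 1 of SPF colon was highest and replicate 2 of GF colon lowest of its group for both Penk and the markers. Elsewhere the orders differed: in SPF small intestine the highest marker sum (72.8 CPM) was in replicate 1, with 68.5 CPM of Penk, and in GF colon it was in replicate 3 (213 CPM), while Penk was highest in replicate 1. Nog was at 0 in all 4 neuronal groups, Calca also in both GF groups and Nmu in GF colon. In single colonic neuronal libraries 2 to 4 of the 6 genes were at 0. Colonic non-neuronal libraries had sums of 106 to 208 CPM (SPF) and 59.1 to 158 CPM (GF), overlapping the neuronal ones, unlike the pan-enteric neuron markers. Small intestinal non-neuronal libraries held at most 12.7 CPM. The 6 inhibitory neuron markers summed to 2071 to 2524 CPM in SPF colon and 1500 to 2179 CPM in SPF small intestine, and the 6 excitatory ones to 1365 to 1927 and 1289 to 1539 CPM. The part of these neuron classes in the Penk difference was not tested.

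Outside the neuronal fraction Penk was low. Non-neuronal libraries of the SPF colon held 35.1, 4.76, 25.8 and 19.4 CPM, and those of the GF colon 22.7, 22.9 and 0.399 CPM. Those of the small intestine held 0.971, 3.48, 0.835 and 0.226 CPM in SPF and 0.218, 6.87 and 0.137 CPM in GF, which for most is near or under the floor. No non-neuronal library reached a neuronal library of its own segment and microbiota state. Colon over small intestine within non-neuronal nuclei gave log2 fold changes of 3.39 in SPF (SE 1.52, edgeR adjusted p = 0.279) and 2.35 in GF (SE 1.67, adjusted p = 0.662), and the SPF value passed with all 28 libraries in the fit (3.62, adjusted p = 0.0192). The log2 fold changes between fractions were 4.35 (SE 0.86, edgeR adjusted p = 0.00102) in SPF colon and 5.68 (SE 0.96, adjusted p = 9.50e-05) in SPF small intestine. In GF they were 3.74 (SE 0.97, edgeR adjusted p = 0.0152) in the colon and 5.37 (SE 1.07, adjusted p = 0.000883) in the small intestine. The GF colon call was lost without neuronal replicate 1 of that group (adjusted p = 0.0728), its library of highest Penk.

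**Figure D2:**
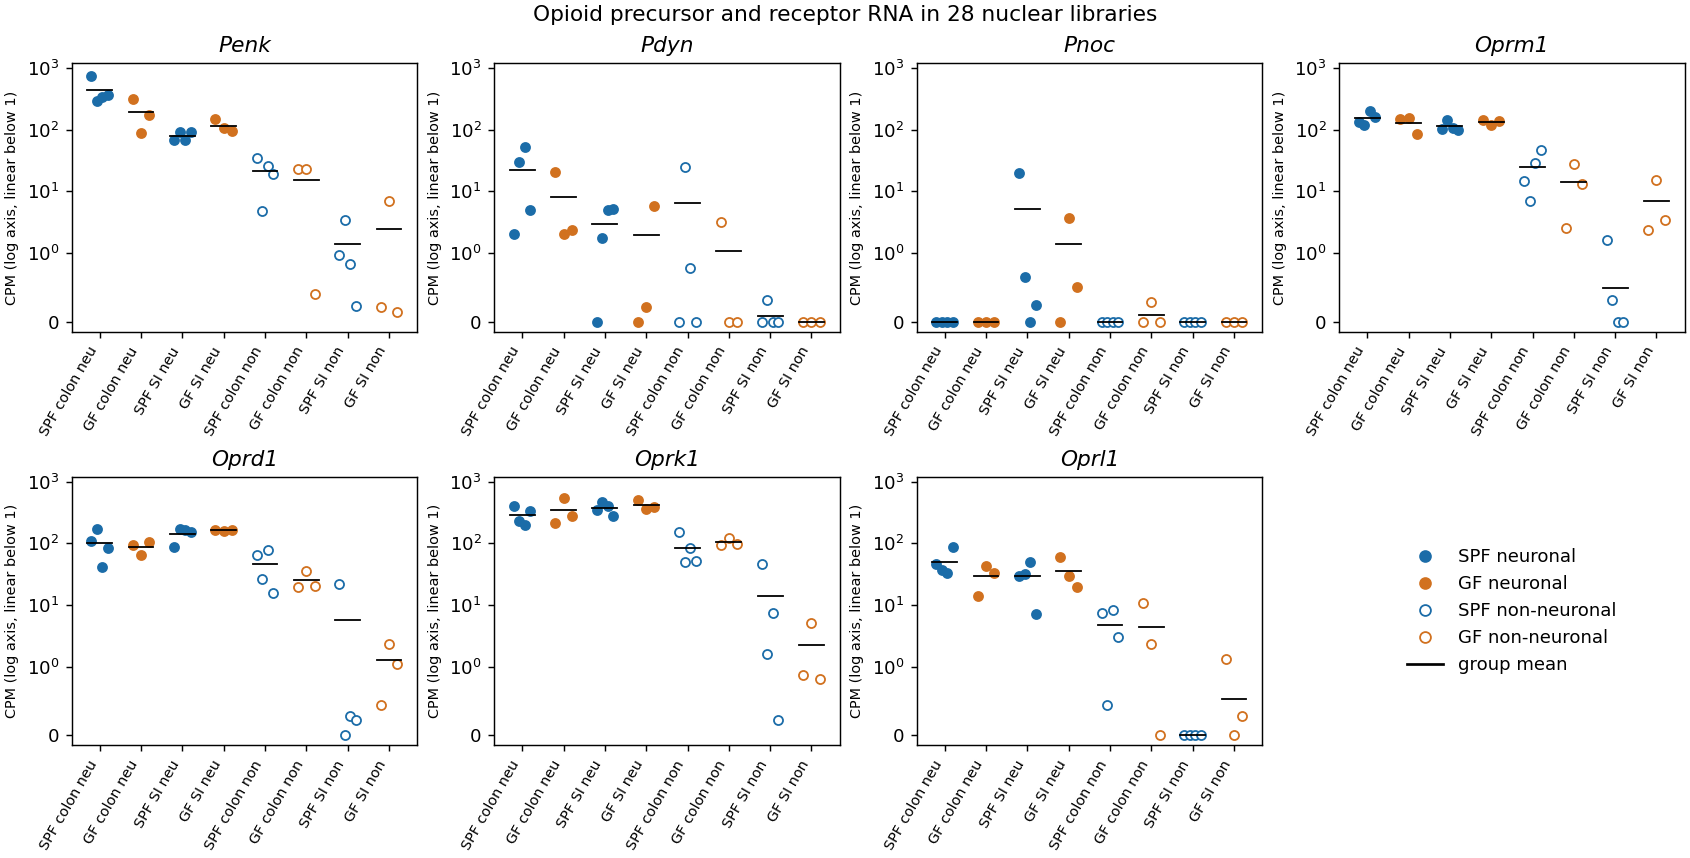
CPM of the 7 opioid genes (y axes, logarithmic above 1 and linear below) in each of 28 libraries, by group on the x axes (neu, neuronal; non, non-neuronal; SI, small intestine), with horizontal lines at group means. Penk reached 288 to 752 CPM in SPF colonic neuronal libraries and 66.8 to 92.5 CPM in SPF small intestinal ones, while Oprm1 stayed between 83.5 and 202 CPM over all neuronal libraries and Pnoc was at 0 in most libraries.

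Pdyn, the dynorphin precursor, was detected at low and uneven levels. The SPF colonic neuronal libraries held 2.07, 30.1, 51.5 and 5.02 CPM, and the GF ones 20.2, 2.02 and 2.36 CPM. In the small intestine the SPF neuronal libraries held 0, 1.75, 5.01 and 5.17 CPM and the GF ones 0, 0.214 and 5.68 CPM. The highest library held 201 counts of Pdyn, and its group ran down to 5 counts. The coefficient of variation over the 14 neuronal libraries was 159%. Of 14 non-neuronal libraries, 10 were at 0. The exceptions with more than 3 counts were SPF colonic replicate 2 at 24.7 CPM and GF colonic replicate 1 at 3.18 CPM.

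No edgeR comparison called Pdyn. In SPF neuronal nuclei colon over small intestine gave a log2 fold change of 2.72 (SE 1.37, edgeR adjusted p = 0.489). Neuronal over non-neuronal nuclei of the SPF colon gave 1.69 (SE 1.71, edgeR adjusted p = 0.609), and 6.11 (adjusted p = 0.0902) without the non-neuronal replicate at 24.7 CPM. There limma-voom, which gives libraries quality weights, called it (4.66, adjusted p = 0.0109). The same contrast gave 4.68 (adjusted p = 0.130) in SPF small intestine, 2.89 (adjusted p = 0.436) in GF colon and 6.00 (adjusted p = 0.141) in GF small intestine. Whether edgeR could detect differences of that size at these counts and this spread was not tested.

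Pnoc, the nociceptin precursor, was at 0 in 22 of 28 libraries, including all 7 colonic neuronal libraries, where the floor was at most 1.24 CPM. Replicate 1 of the SPF small intestinal neuronal group held 78 counts (19.6 CPM), and replicate 2 of the GF group held 17 counts (3.64 CPM). The other 4 libraries with any count held 1 or 3 counts each. The SPF library with 19.6 CPM was also the highest in markers of interstitial cells of Cajal, the pacemaker cells of gut muscle, whose 5 genes (Kit, Ano1, Etv1, Gpr20 and Prkcq) summed to 2408 CPM there. They summed to 728 to 849 CPM in the other 3 libraries of that group and 472 to 698 CPM in the GF group, with none of the 5 at 0 in either group. In the GF group the library with 3.64 CPM of Pnoc had the lowest sum, 472 CPM. Etv1 is also on the list of inhibitory neuron markers, so the sum is not specific to Cajal cells. Their part in the Pnoc value was not tested.

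Oprm1, the mu receptor, was the least variable member among neuronal libraries, with a coefficient of variation of 23.0% over 14 libraries. Neuronal libraries held 132, 119, 202 and 161 CPM in SPF colon and 148, 157 and 83.5 CPM in GF colon. They held 104, 142, 106 and 99.4 CPM in SPF small intestine and 146, 119 and 138 CPM in GF small intestine. The ranges of all 4 groups overlapped with their neighbours in order, from 153 CPM on average in SPF colon down to 113 CPM in SPF small intestine. No test between segments or microbiota states in neuronal nuclei called Oprm1.

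Non-neuronal Oprm1 was lowest in the SPF small intestine. The main edgeR fit did not call it between segments, while some alternatives given below did in SPF. The SPF colonic libraries held 14.8, 6.93, 29.2 and 47.4 CPM and the GF ones 2.50, 27.5 and 13.2 CPM. The SPF small intestinal libraries held 1.62, 0.317, 0 and 0 CPM, 6 counts in all, and the GF ones 2.40, 15.0 and 3.41 CPM. Every SPF small intestinal library lay below every other non-neuronal library of either segment. In edgeR's test of SPF colon over SPF small intestine the log2 fold change was 5.27 (SE 1.54, adjusted p = 0.0836), in a comparison where 1.09% of 18267 genes and no member were called. Without replicate 1 of the small intestinal group, the library of high neuron marker RNA, it was 7.17 (edgeR adjusted p = 0.0454). In GF the ranges of the segments overlapped, and the log2 fold change was 0.47 (SE 1.45, edgeR adjusted p = 0.952). The SPF value also passed with DESeq2 (adjusted p = 0.000617), with limma-voom (adjusted p = 0.0314) and with all 28 libraries in the edgeR fit (adjusted p = 6.67e-05).

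Neuronal over non-neuronal log2 fold changes of Oprm1 were 2.61 (SE 0.66, edgeR adjusted p = 0.00711) in SPF colon and 7.73 (SE 0.89, adjusted p = 4.21e-08) in SPF small intestine. In GF they were 3.34 (SE 0.79, edgeR adjusted p = 0.00558) and 3.91 (SE 0.81, adjusted p = 0.000911). Without replicate 1 of the SPF small intestinal non-neuronal group the SPF small intestine value was 9.67 (adjusted p = 1.10e-08). The GF colon value was just over the threshold without non-neuronal replicate 1 of that group (adjusted p = 0.0505). The fraction effect was smaller in SPF colon than in SPF small intestine by 5.11 on the log2 scale (interaction -5.11, SE 1.03, edgeR adjusted p = 0.00599). Oprm1 was the only member called in that interaction, where 0.892% of 20964 genes were called, and it stayed called in all 35 alternatives run, between -7.05 and -4.62. The scaling to neuron markers was not run for this test. In GF the interaction was -0.56 (SE 1.03, edgeR adjusted p = 0.915), with no member among the 0.21% of genes called. Whether the SPF and GF interactions differ was not tested. The neuron marker sums given above were higher in colonic than in small intestinal non-neuronal libraries in both SPF and GF, and their part in these interactions was not tested.

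Oprd1, the delta receptor, had its highest mean levels in small intestinal neurons, and neighbouring groups in the order overlapped. Neuronal libraries held 167, 161 and 163 CPM in GF small intestine and 85.9, 167, 165 and 154 CPM in SPF small intestine. They held 107, 169, 40.8 and 84.4 CPM in SPF colon and 93.0, 65.4 and 103 CPM in GF colon. The GF segments did not overlap, but the colon over small intestine log2 fold change of -0.88 did not pass (SE 0.43, unadjusted p = 0.0493, edgeR adjusted p = 0.494), and in SPF the value was -0.69 (SE 0.37, adjusted p = 0.532).

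In the colon Oprd1 was not called between the fractions. Non-neuronal libraries held 63.2, 26.0, 78.1 and 15.4 CPM in SPF colon, overlapping the neuronal ones, and 19.5, 34.9 and 20.4 CPM in GF colon, all below them. The log2 fold changes were 1.06 (SE 0.80, edgeR adjusted p = 0.453) and 1.93 (SE 0.95, adjusted p = 0.215), and the GF value passed without replicate 1 of the SPF small intestinal non-neuronal group (adjusted p = 0.0427). In the small intestine non-neuronal libraries held 22.0, 0, 0.278 and 0.226 CPM in SPF and 0.436, 2.29 and 1.09 CPM in GF. There the log2 fold changes were 4.57 (SE 0.93, edgeR adjusted p = 0.000636) in SPF and 6.51 (SE 1.19, adjusted p = 0.000252) in GF. Without the SPF replicate at 22.0 CPM the SPF value was 9.27 (adjusted p = 8.12e-10). Colon over small intestine within non-neuronal nuclei gave 2.73 in SPF (SE 1.28, edgeR adjusted p = 0.306), 7.42 (adjusted p = 0.00853) without that replicate, and 3.63 in GF (SE 1.56, adjusted p = 0.384). The difference of the fraction effect between segments did not pass in SPF (-3.50, SE 1.17, edgeR adjusted p = 0.136) or GF (-4.57, SE 1.40, adjusted p = 0.188). Without that single library both passed, at -8.21 (edgeR adjusted p = 1.26e-06) and -4.57 (adjusted p = 0.00643). With every library kept, the SPF difference passed in limma-voom (-5.46, adjusted p = 0.0288) and in edgeR with no low-count filter (-3.53, adjusted p = 0.0131). The GF difference passed in DESeq2 (-4.62, adjusted p = 0.0271). It also passed in edgeR with no low-count filter (adjusted p = 0.00763) and with only the groups of the contrast (adjusted p = 0.0141).

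Oprk1, the kappa receptor, was present in every neuronal library at 196 CPM or more. These libraries held 397, 233, 196 and 333 CPM in SPF colon and 214, 543 and 272 CPM in GF colon. They held 344, 468, 402 and 281 CPM in SPF small intestine and 503, 360.0 and 387 CPM in GF small intestine, and the ranges of neighbouring groups overlapped. Colon over small intestine in SPF neuronal nuclei gave a log2 fold change of -0.50 (SE 0.29, edgeR adjusted p = 0.571).

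Oprk1 was also found in non-neuronal nuclei, with higher levels in colonic than in small intestinal libraries. The SPF colonic libraries held 150.3, 49.4, 82.2 and 51.9 CPM and the GF ones 93.5, 122 and 97.0 CPM. The small intestinal libraries held 45.6, 1.58, 7.52 and 0.226 CPM in SPF and 0.873, 5.09 and 0.820 CPM in GF, below every colonic library in both states. In GF the log2 fold change of colon over small intestine was 5.00 (SE 1.23, edgeR adjusted p = 0.0493), the only member called where 0.712% of 18267 genes were called. That call was lost in 10 of 14 fits that left out a library, namely each of the 6 GF libraries and each of the 4 SPF colonic ones, with adjusted p from 0.0602 to 0.240. In SPF the value was 2.28 (SE 0.93, edgeR adjusted p = 0.225), and without the small intestinal replicate at 45.6 CPM it was 4.36 (adjusted p = 0.0219). Markers of several cell types were higher in the same direction. Neuron markers are given above. The 5 epithelial markers summed to 1691 to 12620 CPM (SPF) and 3047 to 5185 CPM (GF) in colonic libraries, against 315 to 789 and 140 to 1867 CPM in small intestinal ones. The 5 endothelial markers summed to 119 to 369 and 159 to 247 CPM in colonic libraries, against 9.18 to 30.7 and 1.96 to 77.6 CPM. No marker of these lists was at 0 in any of the 4 groups, and their part in the Oprk1 values was not tested. Other lists went the other way. Smooth muscle markers had median sums of 9448 (SPF) and 7877 CPM (GF) in colonic libraries, against 14010 and 14540 CPM. Those of the 5 mesothelial markers were 81.2 and 102 CPM, against 108 and 182 CPM.

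Between the fractions, Oprk1 in the colon gave log2 fold changes of 1.77 (SE 0.72, edgeR adjusted p = 0.113) in SPF and 1.85 (SE 0.83, adjusted p = 0.178) in GF, although no libraries overlapped. In limma-voom both passed (adjusted p = 0.00192 and 0.00806), and both also passed in edgeR without the SPF small intestinal non-neuronal replicate at 45.6 CPM (adjusted p = 0.0127 and 0.0337). In the small intestine the values were 4.65 (SE 0.82, edgeR adjusted p = 0.000221) in SPF, 6.77 (adjusted p = 2.90e-09) without that replicate, and 7.15 (SE 1.08, adjusted p = 4.82e-05) in GF. The difference of the fraction effect between segments was -5.31 in GF (SE 1.24, edgeR adjusted p = 0.0634) and -2.87 in SPF (SE 1.02, adjusted p = 0.171). Without that SPF library these were -5.31 (edgeR adjusted p = 0.000379) and -5.00 (adjusted p = 6.15e-05). DESeq2 called the GF difference as well (adjusted p = 0.000465).

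Oprl1, the nociceptin receptor, was the receptor of lowest level in neuronal nuclei per kilobase. Neuronal libraries held 45.9, 36.3, 32.8 and 86.6 CPM in SPF colon and 13.8, 42.5 and 32.5 CPM in GF colon. They held 29.9, 31.2, 48.9 and 7.13 CPM in SPF small intestine and 59.8, 29.4 and 19.2 CPM in GF small intestine, and the 4 ranges overlapped. Its own ligand precursor, Pnoc, was near or under the floor in all but 2 of the same libraries.

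Non-neuronal libraries held 7.42, 0.433, 8.35 and 3.02 CPM of Oprl1 in SPF colon and 10.9, 2.29 and 0 CPM in GF colon. In GF small intestine they held 1.31, 0 and 0.273 CPM, and in SPF small intestine all 4 were at 0. The mean of the neuronal libraries there was 30.1-fold the highest floor of these libraries (edgeR adjusted p = 7.30e-05). That fold is of the mean and no bound for single libraries, since neuronal replicate 4 held 7.13 CPM. The mean of SPF colonic non-neuronal libraries was 4.95-fold the same floor, although the library at 0.433 CPM lay under it. That difference between segments did not pass (edgeR adjusted p = 0.146) except with all 28 libraries in the fit (adjusted p = 0.00893). Between fractions the log2 fold change was 3.35 (SE 1.1, edgeR adjusted p = 0.0424) in SPF colon, 2.77 (SE 1.24, adjusted p = 0.167) in GF colon and 5.21 (SE 1.42, adjusted p = 0.0124) in GF small intestine. In limma-voom the GF colon value passed (3.36, adjusted p = 0.0345). The SPF colon call was lost in 14 of 28 fits that left out a library, with adjusted p from 0.0510 to 0.108. These were each of the 8 SPF colonic libraries, each of the 3 GF small intestinal neuronal libraries, GF colonic neuronal replicate 3 and SPF small intestinal neuronal replicates 2 and 3. The GF small intestine call was lost without non-neuronal replicate 2 (adjusted p = 0.0558) or replicate 3 (adjusted p = 0.0689) of that group.

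**Figure D3:**
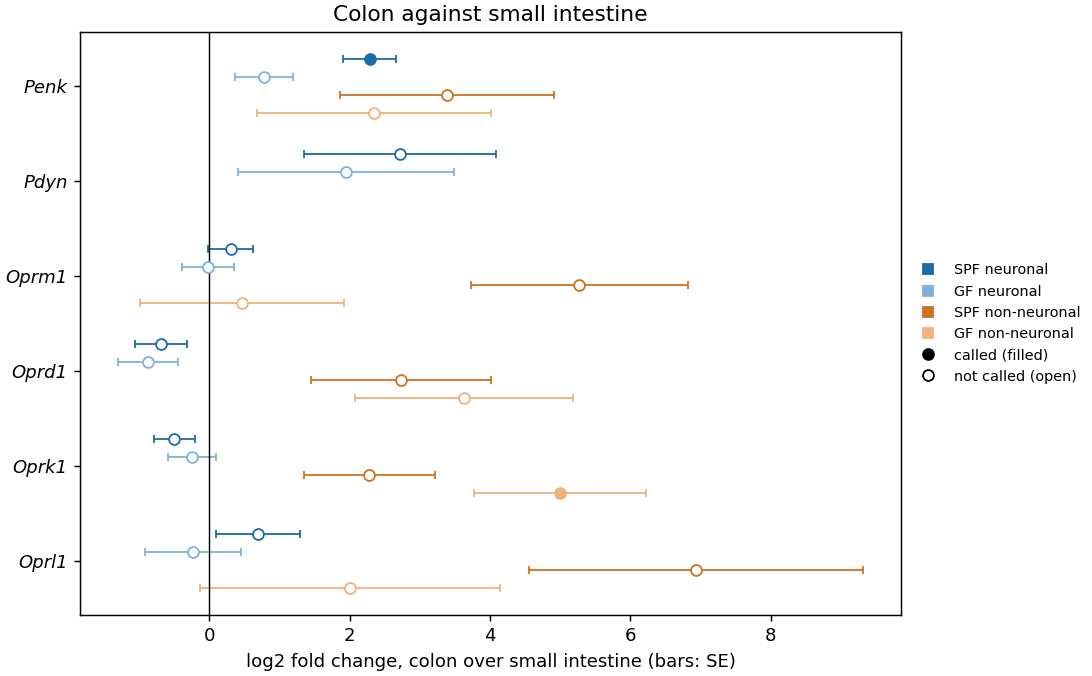
Fitted log2 fold changes of 6 opioid genes, colon over small intestine (x axis, bars are SE), within neuronal and within non-neuronal nuclei of SPF and GF mice. Filled points passed edgeR's test at an adjusted p below 0.05, namely Penk in SPF neuronal (2.28) and Oprk1 in GF non-neuronal nuclei (5.00), and receptor points of neuronal nuclei lie between -0.88 (Oprd1, GF) and 0.69 (Oprl1, SPF). The Oprl1 point in SPF non-neuronal nuclei (6.94) rests on 4 small intestinal libraries at 0 and is no bound.

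Per kilobase of exon, Oprk1 led the 4 receptors in 10 of 14 neuronal libraries, Oprd1 in 3 and Oprm1 in 1. The length is that of all annotated exons merged, 22 in Oprm1 but 3 in Oprd1 and 3 in Oprk1. Orders and shares depend on it, and no other length was tried. In CPM alone, neuronal group means were 113 to 153 for Oprm1 and 87.2 to 164 for Oprd1. Of the summed receptor CPM per kb, Oprk1 made up 35.2% ± 6.87 (SD, n = 4) in SPF colon, 43.3% ± 11.2 (n = 3) in GF colon, 41.7% ± 4.42 (n = 4) in SPF small intestine and 40.3% ± 1.76 (n = 3) in GF small intestine. Oprd1 followed with 27.3% ± 13.2, 27.8% ± 10.9, 36.2% ± 7.87 and 36.5% ± 4.10 in the same order. Oprm1 made up 22.8% ± 10.5 and 19.7% ± 6.56 in SPF and GF colon, and 14.4% ± 1.85 and 14.9% ± 1.28 in SPF and GF small intestine. Oprl1 made up 7.75% to 14.8% on average. For Oprm1, Oprd1 and Oprk1 the SD was smaller in the small intestine than in the colon in both states, and the ranges of Oprk1, Oprd1 and Oprm1 overlapped between segments. Shares of 1 total move against each other, so they are given with no test.

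**Figure D4:**
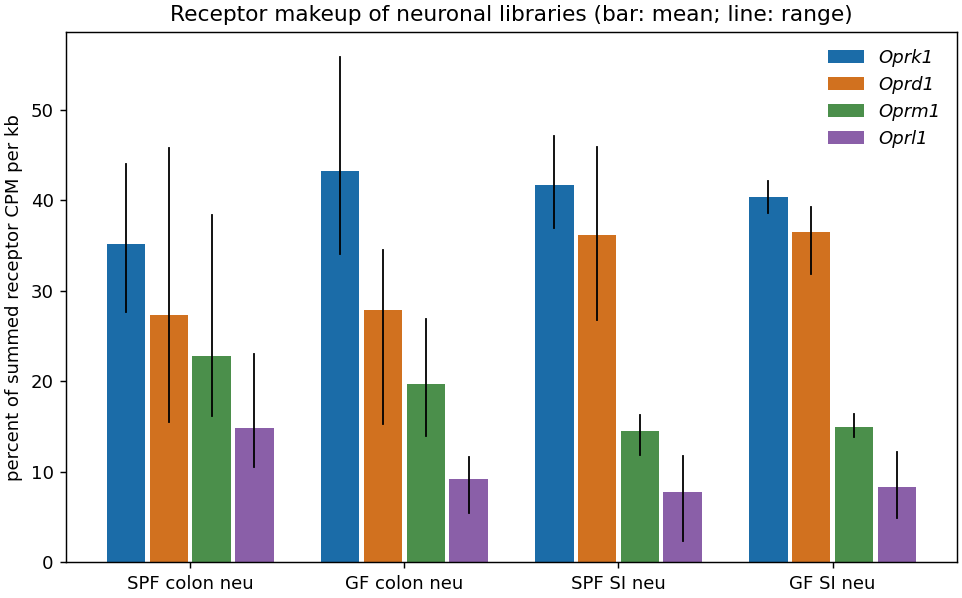
Mean share of each receptor gene (bars, percent of the summed CPM per kb of 4 receptor genes) in the 4 neuronal groups (neu, neuronal; SI, small intestine), with lines from the lowest to the highest library. Oprk1 has the tallest bar in each group, from 35.2% in SPF colon to 43.3% in GF colon, and the ranges of Oprk1, Oprd1 and Oprm1 are wider in colonic than in small intestinal groups of 1 state.

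Levels in the colonic non-neuronal fraction were also set against its neuron marker counts. Oprk1 amounted to 7.14% ± 3.09 (SD, n = 4) of the summed neuron marker counts in SPF and 10.5% ± 1.29 (n = 3) in GF colonic non-neuronal libraries, and to 6.23% ± 2.68 and 6.49% ± 3.98 in the neuronal ones. Oprd1 amounted to 4.29% ± 3.89 and 2.43% ± 0.316 in the non-neuronal and 2.08% ± 1.02 and 1.58% ± 0.219 in the neuronal libraries. Oprm1 amounted to 2.68% ± 2.47 and 1.34% ± 0.964 against 3.23% ± 0.815 and 2.41% ± 0.905. Penk went the other way from the kappa and delta receptors, with 1.98% ± 1.24 and 1.42% ± 1.23 in non-neuronal against 9.62% ± 6.08 and 3.44% ± 1.97 in neuronal libraries. In GF colon all 3 non-neuronal libraries lay above all 3 neuronal ones for Oprd1 on this scale, and for Oprk1 the ranges overlapped through neuronal replicate 2. Scaled in this way, no member was called between the fractions of the colon in either state.

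**Figure D5:**
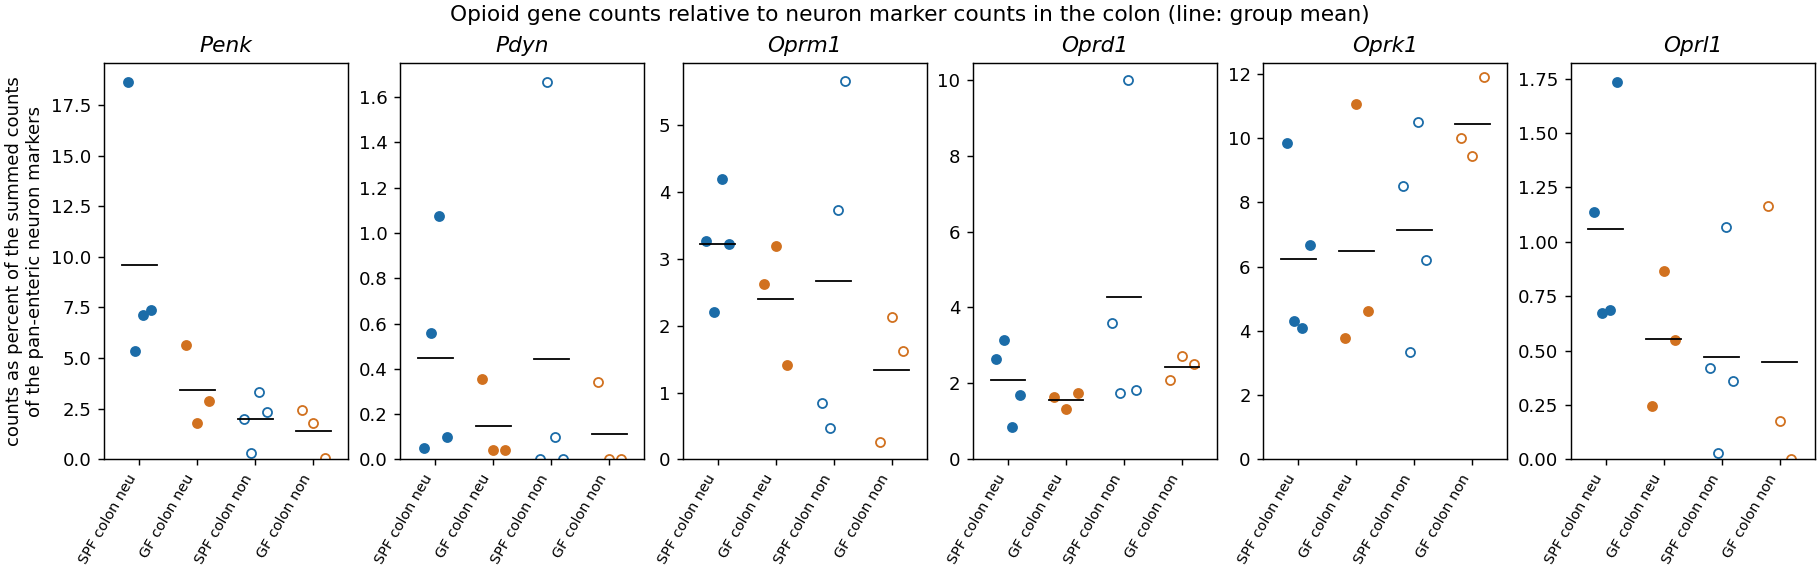
Counts of 6 opioid genes as percent of the summed counts of 10 pan-enteric neuron markers (y axes, linear, own scale per gene) in the 14 colonic libraries, by group (filled, neuronal; open, non-neuronal; blue, SPF; orange, GF). Lines are group means, and Penk means are higher in the neuronal groups (9.62% and 3.44%) than in the non-neuronal ones (1.98% and 1.42%), while those of Oprk1 are not.

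SPF and GF mice were compared within each segment and fraction. No member was called in neuronal nuclei of the colon or small intestine, where 0% of 17298 genes were called in each, or in colonic non-neuronal nuclei, where 0% of 18267 genes were called. In small intestinal non-neuronal nuclei 0.00547% of genes were called, and no member. Of 22 member tests by edgeR, 4 had an unadjusted p below 0.05, and DESeq2 and limma-voom called none. Colonic neuronal Penk averaged 438 ± 212 CPM (SD, n = 4) in SPF and 193 ± 117 CPM (n = 3) in GF, with overlapping libraries and a log2 fold change of 1.05 (SE 0.40, unadjusted p = 0.0133, edgeR adjusted p = 0.437). Small intestinal neuronal Penk differed the other way, from 66.8 to 92.5 CPM in SPF and from 95.0 to 148 CPM in GF, at -0.46 (SE 0.39, edgeR adjusted p = 1).

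The other 3 unadjusted values were receptors in small intestinal non-neuronal nuclei. Oprm1 was 0 to 1.62 CPM in SPF and 2.40 to 15.0 CPM in GF (log2 fold change -3.96, SE 1.50, edgeR adjusted p = 0.365), and with all 28 libraries in the fit it passed (-4.05, adjusted p = 0.0330). Oprk1 was 0.226 to 45.6 CPM in SPF and 0.820 to 5.09 CPM in GF. Its log2 fold change was 2.39 (SE 1.07, edgeR adjusted p = 0.421), and 0.35 (adjusted p = 0.918) without SPF replicate 1, which held 141 counts of it. Oprl1 had both group means under the floor, so no fold is given (edgeR adjusted p = 0.436). In the interaction of segment and microbiota in non-neuronal nuclei 0% of 18267 genes were called. With only the 2 SPF replicates per group that lacked abundant Xist RNA set against all GF libraries, an alternative added after seeing the data, no member was called either.

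The opioid pathway beyond the 7 genes was described from a list of 43: peptide processing enzymes, Pomc, peptidases, atypical receptors, G proteins, effector channels and cyclases, and receptor regulators. Between fractions 10 of 43 were called higher and 2 lower in SPF colon, 14 and 2 in SPF small intestine, 5 and 1 in GF colon, and 13 and 3 in GF small intestine. Of all genes tested, 3.27%, 9.09%, 2.2% and 5.6% were called higher in that order, and 10.8%, 15.1%, 7.17% and 10.9% in either direction. The list's median log2 fold changes were 1.09, 1.28, 1.22 and 1.50, beside -0.05, 0.04, -0.07 and 0.02 over all genes tested. Of 10 effectors 5, 4, 3 and 5 were called higher in that order, and no effector was called lower. Of 6 peptide processing genes 3 were called higher in each small intestinal comparison (Pcsk1 and Pcsk2, the convertases, and Scg5, a chaperone of Pcsk2) and none in the colon. These 3 were named after their values were seen. Both counts stand beside the same shares of all genes called higher (3.27%, 9.09%, 2.2% and 5.6%). Pomc, another opioid peptide precursor, was called higher in SPF colon and GF small intestine, but not in SPF small intestine or GF colon. It too was picked out after its values were seen.

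Among the list genes of lowest p, Grk3, a kinase that phosphorylates active receptors, averaged 537 to 767 CPM in the neuronal groups, 184 and 215 CPM in colonic and 63.1 and 18.7 CPM in small intestinal non-neuronal groups (SPF and GF). Its log2 fold changes ran from 1.97 in GF colon to 4.61 in GF small intestine (SE 0.51, edgeR adjusted p = 2.86e-08). Cacna1b, the N-type calcium channel that opioid receptors inhibit at nerve endings, was higher by log2 fold changes of 2.59 and 2.89 in the colon (SPF and GF) and 4.63 and 6.07 in the small intestine. Cacna1a, the P/Q-type channel, was higher by 2.44 and 2.99 in the colon and 1.65 and 1.46 in the small intestine, with edgeR adjusted p of at most 0.00899. Kcnj6, a subunit of the potassium channels that these receptors open, was called in all 4 comparisons, and it was at 0 in all SPF small intestinal non-neuronal libraries against 20.1 to 61.5 CPM in neuronal ones. Kcnj3, its partner subunit, averaged 92.8 to 108 CPM in neuronal groups and was called in 3 of the 4. Rgs17, which speeds the turn-off of inhibitory G proteins, was called in both small intestinal comparisons.

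The list genes called lower in neuronal nuclei were few, and are named here after their values were seen. Anpep, an aminopeptidase that cleaves enkephalin, was lower in all 4 comparisons, with log2 fold changes from -6.76 to -4.25. Mme, the enkephalin-degrading neprilysin, was lower in both small intestinal comparisons (-6.16 and -7.58), Ace in GF small intestine (-5.52) and Cpe in SPF colon (-2.01). Not every peptidase went this way: of 7 peptide breakdown genes, 1 was called higher in each small intestinal comparison and 1 in SPF colon. In GF colon 0 were called higher. The share of all genes called higher was 9.09% (SPF) and 5.6% (GF) in the small intestine and 3.27% in SPF colon. Non-neuronal Anpep ranged from 104 to 980 CPM and Mme from 8.07 to 385 CPM in GF small intestine, so the spread within that group was wide. Epithelial markers (5 genes) summed to 140 to 1867 CPM in the same group and at most 76.1 CPM in its neuronal counterpart. The colonic non-neuronal libraries had more epithelial marker RNA (1691 to 12620 CPM) with less Anpep (7.36 to 47.1 CPM) and Mme (0.399 to 6.58 CPM). The part of epithelial cells in these values was not tested.

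Between segments, 2 of the list genes were called, both in non-neuronal nuclei. Rgs9, another G protein regulator, was lower in SPF colon (-1.95, SE 0.46, edgeR adjusted p = 0.0339), and Grk3 was higher in GF colon (2.92, SE 0.66, adjusted p = 0.0287). Each is 1 of 40 list genes tested, where 1.09% (SPF) and 0.712% (GF) of all genes were called. In neuronal nuclei edgeR called 0 of 41 tested, beside 0.653% and 0.301% of all genes, with 2 in SPF and 1 in GF at an unadjusted p below 0.05. Between microbiota states it called 0 in all 4 comparisons, beside 0% to 0.00547% of all genes, with 0 to 4 at an unadjusted p below 0.05.

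Likeness of pattern was measured as Pearson's r of log2(CPM + 1) over the 14 neuronal libraries, among 12177 genes with a named symbol and adequate level. These are descriptions, and the libraries share segment, microbiota state and depth. Penk was closest to Atp6v0a1 (r = 0.921), Myt1 (0.919) and Slc44a5 (0.881). Oprl1 was closest to Cacnb2 (0.919), Tcf4 (0.885) and Tmem243 (0.871), and Oprd1 to Ngef (0.906), Fat1 (0.878) and Ephx2 (0.839). Oprk1 was closest to Cinp (0.860), Thap4 and Uxt, and Oprm1 to Greb1l (0.835), Lrrc71 and Cadm1. For the uneven peptides, Pdyn was closest to Tmem203 (0.853), and Pnoc, which rests on 1 library, to Fam186b (0.909), Hoxc6 and Adssl1.

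Among the members themselves, most relations across the 14 neuronal libraries were weak to moderate. The strongest of the 21 pairs was Pdyn with Oprk1, the dynorphin precursor and its receptor, at r = -0.754. Pdyn was low here, at most 5.17 (SPF) and 5.68 CPM (GF) in small intestinal neuronal libraries. Penk gave r = -0.357 with Oprd1 and 0.402 with Oprm1, the receptors of its peptides. Pnoc and Oprl1 gave r = -0.123.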

How the data were processed

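Nuclear RNA of 28 libraries was measured. The authors deposited expected counts per gene. The submitters' processing notes name the GRCm38 build with STAR 2.5.2, RSEM 1.3.0 and DESeq2 1.10.1. No source used here gives the strand setting. Expected counts were rounded to whole numbers (7.48% of values were not whole). Of 51912 genes, 51633 were matched to GENCODE M21 and 279 were not.

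Counts were tested with edgeR 4.0.16 in R 4.3.3 (quasi-likelihood, TMM, filterByExpr, two-sided, Benjamini-Hochberg adjustment over all genes tested, threshold 0.05). Fits between fractions, and those of the difference of the fraction effect between segments, used all 28 libraries. The others used the 14 libraries of their fraction. The steps were tested on simulated data. Alternatives were DESeq2 1.42.0, limma-voom (limma 3.58.1), other scalings, filters and samples, and leaving out each library. CPM used library totals. Counts carry no molecular identifiers, so the floor of 3 counts covers counting error only.

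Members and lists were chosen with earlier results of these data known. Members were named in every comparison. Of the pathway list, up to 6 called genes of smallest adjusted p per question were named, and for each member with a mean of at least 5 CPM in a neuronal group the 3 genes of highest r, of which some are not reported here. Labels do not tie libraries to animals, so p-values measure the spread between libraries. Of 36 library pairs within groups, 0 were identical. Replicate numbers were not shown to pair libraries: in 0 of 12 comparisons did every pair of deviations correlate above 0.1. With so few pairs per comparison, and with SPF and GF mice among the comparisons, this check cannot show that libraries were unpaired.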

Additional observations from a re-analysis of the deposited data

Results flagged for a closer look

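Single libraries stood apart from the rest of their group in 7 cases among groups of 4, by the gap to the nearest library over the group's range. Chance alone gives such a gap in about 1 in 20 groups where values are normally distributed. Counts near the floor are not, and where all other libraries are at 0 the gap is fixed in advance. The 7 cases therefore cannot be set against that rate. Among peptides they were Pdyn in SPF colonic non-neuronal replicate 2 (24.7 CPM), Pdyn in SPF small intestinal non-neuronal replicate 2 (0.317 CPM, 1 count) and Pnoc in SPF small intestinal neuronal replicate 1 (19.6 CPM). Among receptors of SPF small intestinal neuronal nuclei they were Oprm1 in replicate 2 (142 CPM, high) and Oprd1 in replicate 1 (85.9 CPM, low). In SPF small intestinal non-neuronal replicate 1, the library of high neuron marker RNA, both Oprd1 (22.0 CPM) and Oprk1 (45.6 CPM) stood high.

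The fraction effect of Oprm1 differed between the segments in SPF mice (colon minus small intestine -5.11 on the log2 scale, edgeR adjusted p = 0.00599).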

How the results depend on the processing

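Of 15 member calls between fractions, 2 remained when libraries were scaled to neuron marker counts. That scaling reversed the direction of Oprd1 (-1.04) and Oprk1 (-0.20) in SPF colon, Penk (-0.66) and Pdyn (-0.74) in SPF small intestine, Oprd1 (-0.63) and Oprk1 (-0.69) in GF colon, and Oprm1 (-1.30) and Oprl1 (-0.30) in GF small intestine. The scaling itself lowers values where marker counts differ between fractions. Between segments 2 calls became 4 with all 28 libraries in the fit, and 1 to 5 when a library was left out. Between microbiota states 0 calls became 1 with all 28 libraries. In the interactions 1 call became 4 with DESeq2, 3 with limma-voom, 5 with no low-count filter, 3 with only the groups of the contrast, and 1 to 5 when a library was left out, 5 of them without SPF small intestinal non-neuronal replicate 1. The cause of these changes in count was not tested. Without that library the GF interactions of Oprd1 (-4.57) and Oprk1 (-5.31) kept their size, and only their adjusted p fell. The GF interaction of Oprm1 ran from -1.34 to 0.26 when a library was left out.

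With the replicate number as a block, calls numbered 16 between fractions, 3 between segments, 0 between microbiota states and 3 in interactions. The block added Oprk1 in SPF colon between fractions (1.94, edgeR adjusted p = 0.0428), in SPF non-neuronal nuclei between segments (3.74, adjusted p = 0.0307) and in the SPF and GF interactions (-3.67, adjusted p = 0.0493 and -5.63, adjusted p = 0.0180), and changed no other member's call. Depth limits Pdyn, Pnoc and the small intestinal non-neuronal values, many of which rest on under 10 counts.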
